A study of Homo sapiens with 6 samples.

Results

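Long intergenic non-coding RNAs (lincRNAs) were examined in SK-MES-1 cells, an established line from a human lung squamous cell carcinoma. The lincRNAs described were selected on measured values: the deposited table gave their biotype as lincRNA, and their mean over the 6 libraries reached 2 FPKM (a level scaled by gene length and sequencing depth). Of 58735 genes in the table, 7629 were lincRNAs, 2991 of these had a read in any library, and 144 met the rule. Of the 144, 76 have only a clone name (such as AC245041.1) and 68 have another symbol. The lincRNAs just inside the limit were USP46-AS1 (2.02 FPKM), AL033530.1 (2.02 FPKM) and LINC00960 (2.01 FPKM), and those just outside were AC116049.2 (1.98 FPKM), AC019069.1 (1.95 FPKM) and LINC00842 (1.95 FPKM). The mean ran over all groups, so 35 of the 144 had a mean under 2 FPKM in at least 1 group.

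The libraries fall into 3 groups of 2, which the labels call si1, si2 and NC. Both si1 and si2 were cells in which KRT6A, a keratin of stratified epithelia, was to be lowered by transient knockdown, and NC was the control of the same line. The labels leave these names unexplained and give neither the reagents nor the length of the treatment, and nothing says that libraries of 1 group came from separate cultures. The p-values then measure only the spread between these libraries, which may be technical.

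A lincRNA is transcribed from its own gene outside protein-coding genes, is usually capped and spliced, and codes for no known protein. Some act in the nucleus, such as MALAT1 in nuclear speckles and NEAT1, which builds paraspeckles, whereas NORAD sits in the cytoplasm and binds PUMILIO proteins, which repress mRNAs. Small nucleolar RNA (snoRNA) host genes carry snoRNAs, guides for the modification of ribosomal RNA, in their introns, and many of their spliced transcripts start with a pyrimidine tract like that of ribosomal protein mRNAs and are removed by nonsense-mediated decay.

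NORAD is shown because its known binding elements can be read in its sequence. Its annotated transcript (GENCODE release 29, hg38, chr20:36045622-36050960, minus strand, a single exon) has 5339 bases and holds 15 copies of the PUMILIO element (TGTA, any base, then ATA), read on the transcript's own strand, or 2.81 per kilobase. The stretch from base 1430 to base 1470 holds 2 of them, in capitals.
NORAD: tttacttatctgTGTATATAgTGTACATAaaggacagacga
FTX had the next highest count of the element, 7 in 12267 bases, and NEAT1 had 6 in 22743 bases. Of the 144 lincRNAs, 22 had at least 1 copy in their longest transcript and 122 had none.

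The snoRNA hosts are shown by their start sites. RefSeq (GRCh38.p14) gave a start for 18 of the snoRNA hosts tested, 4 of them among the 144 lincRNAs. The windows below hold 20 bases before and 50 bases from the start, with CTTTC and CTTTT in capitals where they occur on the strand of the gene.
SNHG19 (chr16:2155309-2155378, minus strand): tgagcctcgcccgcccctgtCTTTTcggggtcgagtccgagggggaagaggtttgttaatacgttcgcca
SNHG8 (chr4:118278742-118278811, plus strand): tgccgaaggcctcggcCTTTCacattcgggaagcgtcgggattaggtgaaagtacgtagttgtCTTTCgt
SNHG4 (chr5:139274081-139274150, plus strand): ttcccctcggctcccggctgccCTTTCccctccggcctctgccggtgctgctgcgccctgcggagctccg
EPB41L4A-AS1 (chr5:112160506-112160575, plus strand): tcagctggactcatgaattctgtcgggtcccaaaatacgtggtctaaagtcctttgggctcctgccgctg
SNHG5 (chr6:85678684-85678753, minus strand): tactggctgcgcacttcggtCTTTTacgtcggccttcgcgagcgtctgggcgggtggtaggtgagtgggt
At least 1 of the 2 motifs stood in the window of 9 of the 18 hosts, and in 3 of the 4 that are among the 144. Over 35116 RefSeq starts the share was 15.43%, and on either strand it was 26.81%, against 9 of 18 hosts. The motifs were chosen after the sequences had been seen. A match describes the letters only.

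Of the microRNAs annotated inside the lincRNAs, RefSeq gave 14 mature sequences in 5 hosts. For MIR3142HG, the host with the largest difference between the knockdown groups, 2 of its 3 matched sequences are shown (miR-146a-3p is left out), beside the 2 of MIR22HG, with bases 2 to 8, the seed that pairs with targets, in capitals. No 2 of these 4 share a seed.
miR-146a-5p (in MIR3142HG, chr5:160485372-160485393): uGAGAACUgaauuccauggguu
miR-3142 (in MIR3142HG, chr5:160474492-160474513): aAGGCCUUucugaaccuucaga
miR-22-3p (in MIR22HG, chr17:1713914-1713935): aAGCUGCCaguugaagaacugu
miR-22-5p (in MIR22HG, chr17:1713952-1713973): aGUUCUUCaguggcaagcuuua
The positions are those of RefSeq (GRCh38.p14). For miR-3142 the position lies outside the MIR3142 gene of GENCODE release 29 (chr5:160474402-160474483). The table gives the level of the host transcripts. Mature microRNAs were not analysed here.

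KRT6A had 0 reads in each of the 6 libraries, so neither the knockdown nor the group labels could be checked from it. The libraries held 14948607 to 17401392 reads, recovered from FPKM and gene length. Of the markers of squamous cells, TP63 stood at 5.34 to 12.8 FPKM and PKP1 at 9.90 to 19.5 FPKM, while KRT5, KRT14 and DSG3 were at or near 0. KRT7, a keratin of simple epithelia, stood at 111 to 185 FPKM, while CDH1, which encodes E-cadherin, did not pass 0.256 FPKM. Of the fibroblast markers, COL1A1 stood at 15.2 to 22.5 FPKM and COL1A2 was at 0. Of the leukocyte and endothelial markers, CD3E and CDH5 were at 0 in each library and the highest value was 1.65 FPKM, of CD14.

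The 144 lincRNAs were few and low beside coding genes. Their median level was 3.75 FPKM, against 8.75 FPKM for the 9478 protein-coding genes held to the same limit. Only 20 reached 10 FPKM, and 97 stayed under 5 FPKM. Together they took 0.254% and 0.257% of the reads in si1, 0.218% and 0.221% in si2, and 0.237% and 0.231% in NC. Both si1 libraries were above both NC libraries in this share and both si2 libraries below them. Without NORAD, which alone took 16.1% to 23.8% of the lincRNA reads, the shares were 0.197% and 0.196% in si1, 0.183% and 0.186% in si2, and 0.187% and 0.185% in NC. Without NORAD, si1 still lay above NC in read share, and si2 overlapped it. The FPKM of the 144, NORAD included, summed to 907 and 920 in si1, 870 and 895 in si2, and 929 and 898 in NC. By that sum, which is scaled by gene length, si1 lay within the range of NC and si2 below it.

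Depth limits the lower lincRNAs: 53 of the 144 had at least 100 reads in each library, and 18 had a library with under 20 reads. Of the 144, 46 are annotated with a single block of exons, and exons of 32 overlap those of another gene, 23 of them on the opposite strand. Whether reads were counted by strand is not given in the sources used here, so an overlapping pair cannot be told apart.

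Differences were tested with limma on log2(FPKM + 1) over the 12319 genes whose mean reached 1 FPKM, and a gene was called at a Benjamini-Hochberg adjusted p under 0.05. Fold changes are log2 differences on that scale, with limma's standard error (SE), and understate the change of low genes. Comparisons of si1 with NC and of si2 with NC use the same 2 NC libraries. Values per library are given in the order of the replicate numbers.

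In si1 against NC, 38 of the 144 lincRNAs (26.4%) were called, beside 22.4% of all genes tested. Of these, 17 rose (11.8%, with a background of 9.47%) and 21 fell (14.6%, background 12.9%). In si2 against NC, 44 were called (30.6%, background 29%), 21 up (14.6%, background 13.6%) and 23 down (16%, background 15.4%). These shares lie near the background over all genes tested. Of protein-coding genes at a mean of at least 2 FPKM, 25.9% were called in si1 and 33.4% in si2. The 38 became 18 without NC replicate 1, 23 without NC replicate 2 and 24 without si1 replicate 2. The 44 became 25 without NC replicate 1, 23 without NC replicate 2, 23 without si2 replicate 1 and 28 without si2 replicate 2. In each of these fits with a library left out, a smaller share of all genes tested was called as well. The median log2 fold change of the 144 was 0.10 in si1 and 0.08 in si2, beside −0.01 and 0.00 over all genes tested.

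For si1 and si2 together against NC, 35 were called (24.3%, background 20.5%), 18 up (12.5%, background 8.73%) and 17 down (11.8%, background 11.8%). That count fell to 8 without NC replicate 1 and to 10 without NC replicate 2. The share of all genes called fell in both of those fits too. In si2 against si1, 52 were called (36.1%, background 38.5%), 27 higher in si2 (18.8%, background 19.9%) and 25 lower (17.4%, background 18.6%). Of protein-coding genes at a mean of at least 2 FPKM, 44.3% were called in si2 against si1. The difference between si2 and si1 uses no NC library, but the NC libraries enter the estimate of spread that the 3 groups share. The count for this comparison stayed within 1.5 times when each library was left out in turn. The plot of both differences against NC shows where the knockdown groups part.

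**Figure D1:**
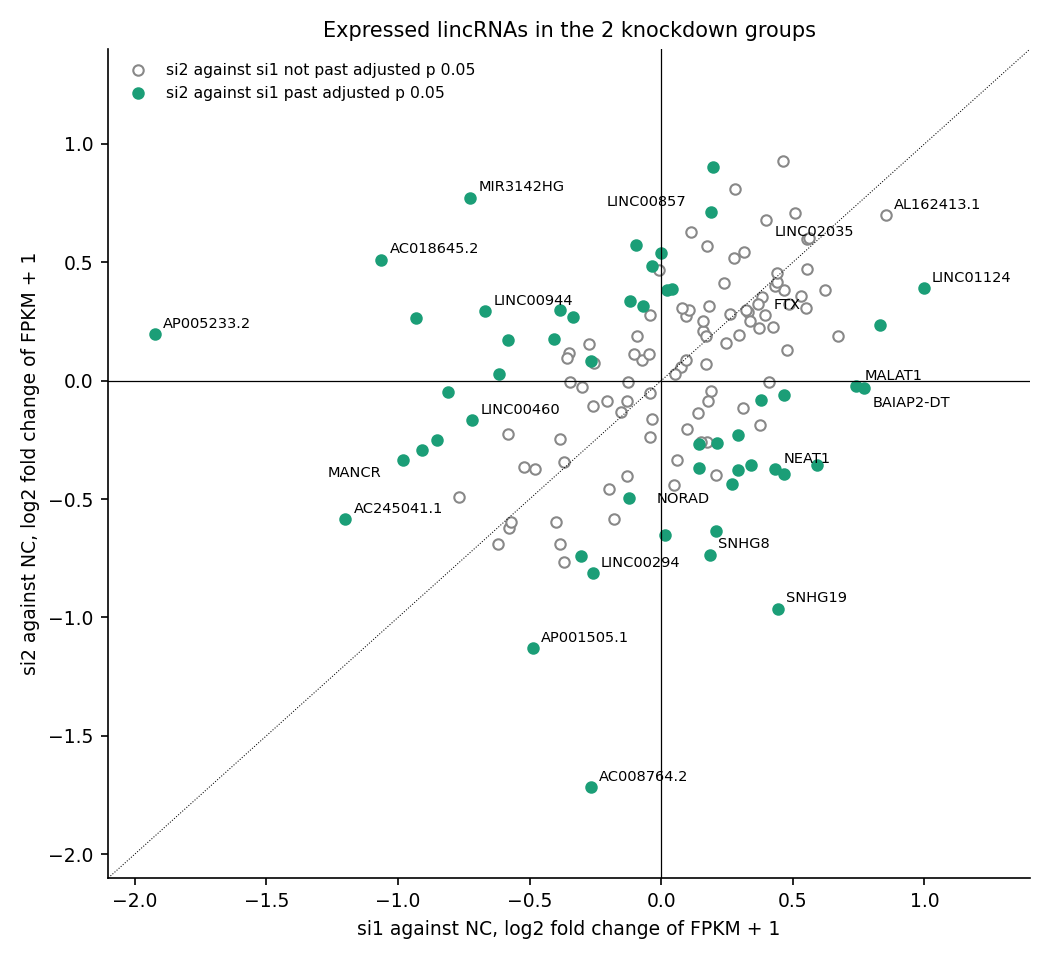
Each point is 1 of 143 expressed lincRNAs, with the log2 fold change of FPKM + 1 in si1 against NC on the x axis and in si2 against NC on the y axis (1 lincRNA is not drawn). Filled points differed between si2 and si1 past an adjusted p of 0.05, and the dotted line marks equal change. Both axes share the NC libraries. SNHG19 (0.44 in si1, −0.96 in si2) and MIR3142HG (−0.73 in si1, 0.77 in si2) lie far from the line on opposite sides.

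The most abundant lincRNA was LINC00942 (chr12:1500525-1504424), at a mean of 90.4 FPKM. It had 90.8 and 82.9 FPKM in si1, 88.2 and 90.7 FPKM in si2, and 97.9 and 92.0 FPKM in NC. All 4 knockdown libraries were below both NC libraries, by a small step. It was not called in any comparison, with log2 fold changes of −0.13 (SE 0.07, adjusted p = 0.213) in si1 and −0.08 (SE 0.07, adjusted p = 0.376) in si2.

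NORAD came next, at a mean of 87.9 FPKM. It had 104 and 113 FPKM in si1, 65.6 and 66.2 FPKM in si2, and 93.3 and 86.0 FPKM in NC. The 3 groups did not overlap: si1 was highest and si2 lowest. NORAD fell in si2 (−0.44, SE 0.07, adjusted p = 0.00415), and it was lower in si2 than in si1 (−0.71, SE 0.07, adjusted p = 3.91e-04). Both calls were kept under all 17 alternative settings. The smaller rise in si1 (0.27, SE 0.07, adjusted p = 0.0286) failed in 5 of the 6 leave-one-out fits, each without 1 library, with an adjusted p of 0.0724 without NC replicate 1, 0.177 without NC replicate 2, 0.0762 without si1 replicate 2, 0.0579 without si2 replicate 1 and 0.0581 without si2 replicate 2.

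Of 11 lncRNAs listed as abundant nuclear ones, 5 were tested and 3 are among the 144: MALAT1, NEAT1 and FTX. All 3 rose in si1, as did 9.47% of all genes tested. In si2, 0 of the 3 rose and NEAT1 fell, as did 15.4% of all genes. TUG1 and PVT1, tested but outside the 144, were called in neither.

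MALAT1 (chr11:65497688-65506516, plus strand), an abundant RNA of nuclear speckles, had 21.4 and 17.3 FPKM in si1, 9.94 and 12 FPKM in si2, and 10.9 and 11.3 FPKM in NC. Only si1 stood apart, and the si2 libraries lay on both sides of NC. MALAT1 rose in si1 (0.74, SE 0.12, adjusted p = 0.00639), a call lost without NC replicate 1 (adjusted p = 0.0505). It was lower in si2 than in si1 (−0.76, SE 0.12, adjusted p = 0.00314), kept under all 17 alternatives. Its difference in si2 against NC was −0.02 (SE 0.12, adjusted p = 0.912).

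NEAT1 (chr11:65422774-65445540, plus strand), the scaffold of paraspeckles, lies on the same chromosome. It had 8.41 and 7.26 FPKM in si1, 4.02 and 4.06 FPKM in si2, and 5.58 and 5.47 FPKM in NC. As with NORAD, the 3 groups did not overlap, with si1 above NC and si2 below. NEAT1 was lower in si2 than in si1 by a log2 difference of −0.81 (SE 0.09, adjusted p = 7.18e-04), kept under all 17 alternatives. The rise in si1 (0.43, SE 0.09, adjusted p = 0.0147) did not hold without NC replicate 1 (adjusted p = 0.0818) or NC replicate 2 (0.0854). The fall in si2 (−0.37, SE 0.09, adjusted p = 0.0212) did not hold without NC replicate 1 (adjusted p = 0.104), NC replicate 2 (0.0963), si2 replicate 1 (0.0936) or si2 replicate 2 (0.0799).

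FTX (chrX:73946555-74293574, minus strand), a transcript of the X-inactivation centre, had 3.45 and 3.97 FPKM in si1, 3.25 and 3.42 FPKM in si2, and 2.50 and 2.66 FPKM in NC. All 4 knockdown libraries were above both NC libraries. FTX rose in si1 (0.39, SE 0.10, adjusted p = 0.0315) and in si1 and si2 together (0.34, SE 0.09, adjusted p = 0.0364), while in si2 alone it was not called (0.28, SE 0.10, adjusted p = 0.0805). Both calls failed in 5 of the 6 leave-one-out fits, all but the one without si1 replicate 1, with adjusted p up to 0.201. JPX overlaps 37.1% of the length of FTX on the opposite strand, at a mean of 0.194 FPKM.

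By Pearson correlation of log2(FPKM + 1) over the 6 libraries, the lincRNAs most like MALAT1 were BAIAP2-DT (0.963), URB1-AS1 (0.956) and CH17-340M24.3 (0.91), and those most like NEAT1 were LINC01006 (0.986), AP002884.1 (0.969) and AL355338.1 (0.968). The 6 libraries share their groups, so these values describe the group pattern and carry no p. BAIAP2-DT (chr17:81029130-81034881, minus strand), transcribed away from the start of BAIAP2, had 16.7 and 14.7 FPKM in si1, 8.63 and 8.50 FPKM in si2, and 9.24 and 8.34 FPKM in NC. Its si1 libraries stood apart and its si2 libraries lay within NC's range. It rose in si1 (0.77, SE 0.09, adjusted p = 0.0016) and was lower in si2 than in si1 (−0.80, SE 0.09, adjusted p = 7.24e-04), both kept under all 17 alternatives.

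**Figure D2:**
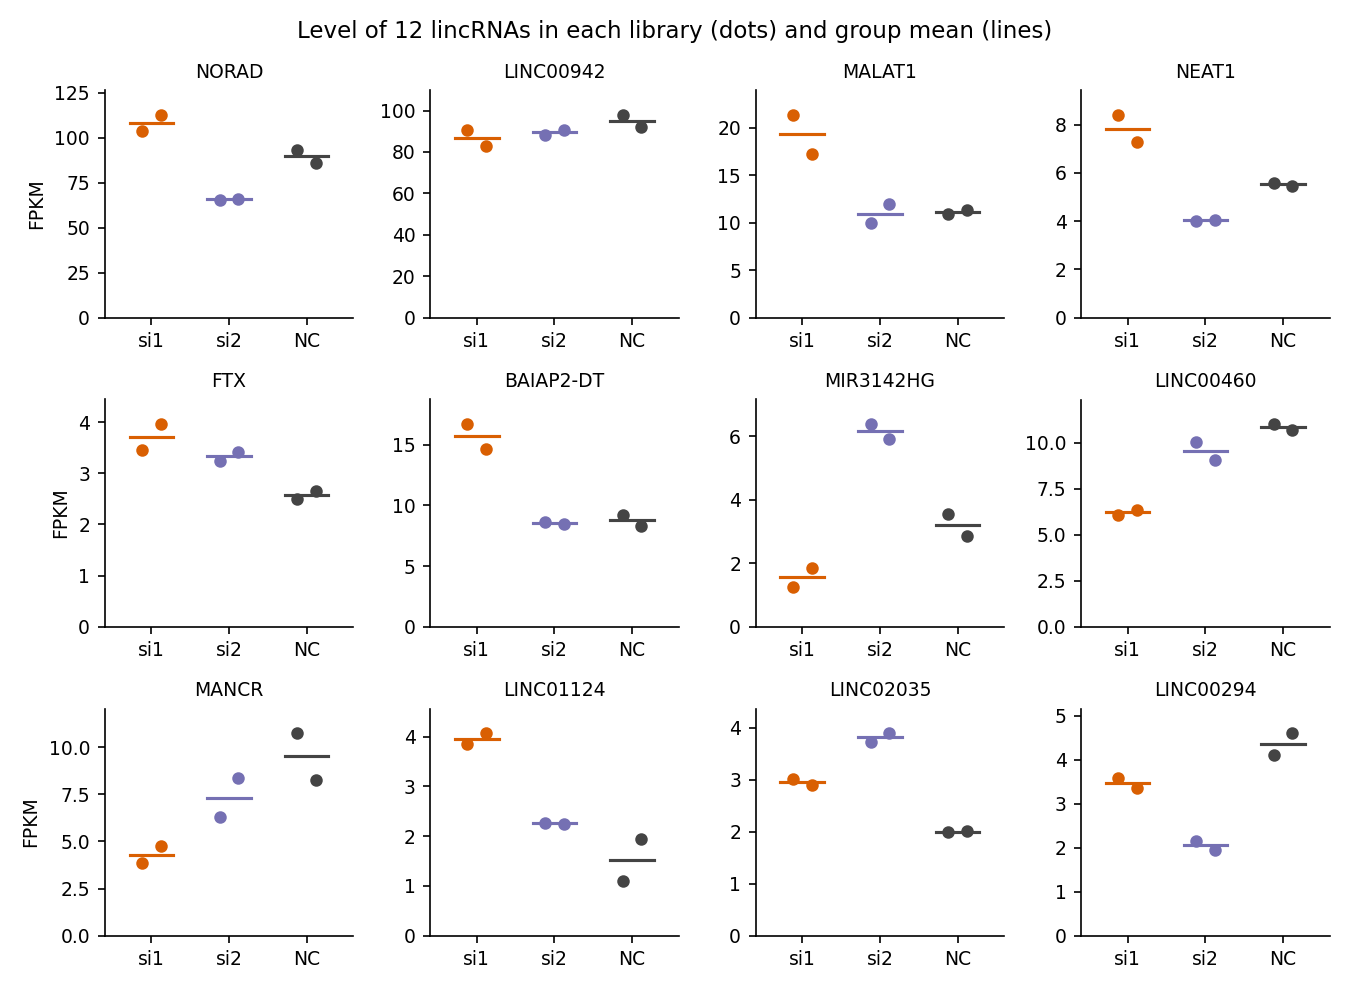
Levels of 12 lincRNAs in FPKM, with a dot for each library and a line for the mean of the 2 libraries of a group (si1, si2 and NC from left to right; y axes start at 0 and differ between panels). NORAD and NEAT1 are highest in si1 and lowest in si2, MALAT1 and BAIAP2-DT are high in si1 only, and MIR3142HG is lowest in si1 and highest in si2.

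Of 35 listed non-coding hosts, 29 were in the table and 21 were tested. In si2 against NC, 12 of the 21 fell and 0 rose, with a median log2 fold change of −0.41 beside 0.00 over all genes tested, of which 15.4% fell and 13.6% rose. In si1 against NC, 1 fell and 0 rose, with a median of 0.02, where 12.9% of all genes fell and 9.47% rose. The difference itself, si2 against si1, was called lower for 10 and higher for 0, with a median of −0.31, beside 18.6% and 19.9% of all genes. SNHG10 was the 1 host with a value above 0 in si2 against NC (0.10).

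Fewer of the 21 were called in si2 against NC when a library of NC or si2 was left out, as were fewer of all genes. The median was −0.411 without NC replicate 1, with 21 hosts below 0, and −0.369 without NC replicate 2, with 20. It was −0.448 without si2 replicate 1, with 20 below 0, and −0.367 without si2 replicate 2, with 19. Without a filter on low values, 6 of 29 fell, where 6.04% of all genes were called in either direction. The count in si2 against si1 was 7 to 10 over the leave-one-out fits. In each of those fits 0 rose in either comparison.

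Of the 21 hosts, 5 are among the 144 lincRNAs: SNHG19, SNHG8, SNHG15, SNHG4 and EPB41L4A-AS1. In si2 against NC 3 of the 5 fell and 0 rose. The others are annotated with another biotype or lie under the limit.

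SNHG19 (chr16:2154797-2155358, minus strand) hosts SNORD60. It had 25.8 and 18.7 FPKM in si1, 7.03 and 8.32 FPKM in si2, and 15.6 and 16.1 FPKM in NC, from 38 to 144 reads. The si1 libraries were the highest and the si2 libraries the lowest. SNHG19 fell in si2 (−0.96, SE 0.15, adjusted p = 0.00414) and was lower in si2 than in si1 (−1.41, SE 0.15, adjusted p = 5.77e-04), both kept under all 17 alternatives. In si1 against NC it was not called (0.44, SE 0.15, adjusted p = 0.0719).

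SNHG8 (chr4:118278709-118279823, plus strand) hosts SNORA24, and its end lies 215 bases from that of PRSS12 on the other strand. It had 13.8 and 18.9 FPKM in si1, 8.09 and 8.10 FPKM in si2, and 13.5 and 14.8 FPKM in NC. Both si2 libraries were below the rest, and si1 overlapped NC. SNHG8 fell in si2 (−0.73, SE 0.13, adjusted p = 0.00842), a call lost without NC replicate 2 (adjusted p = 0.0616). It was lower in si2 than in si1 (−0.92, SE 0.13, adjusted p = 0.00224). PRSS12, a serine protease gene, went the other way, higher in si2 than in si1 by 0.90 (adjusted p = 0.00134).

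SNHG15 (chr7:44983023-44986961, minus strand) hosts SNORA9. It had 3.39 and 3.87 FPKM in si1, 3.04 and 2.47 FPKM in si2, and 4.79 and 5.28 FPKM in NC. All 4 knockdown libraries were below both NC libraries, with si2 lowest. SNHG15 fell in si2 (−0.69, SE 0.11, adjusted p = 0.00564), kept under all 17 alternatives, and its value in si1 missed the threshold (−0.38, SE 0.11, adjusted p = 0.052).

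SNHG4, which hosts SNORA74A and SNORA74D, had 2.59 and 2.66 FPKM in si1, 2.01 and 1.52 FPKM in si2, and 2.95 and 2.06 FPKM in NC. Its si2 libraries were the lowest, and it was not called (−0.33 in si2, SE 0.16, adjusted p = 0.154). EPB41L4A-AS1, host of SNORA13, had 2.45 and 2.70 FPKM in si1, 1.78 and 1.60 FPKM in si2, and 2.11 and 2.37 FPKM in NC. It was lower in si2 than in si1 (−0.41, SE 0.12, adjusted p = 0.0284), a call lost without si1 replicate 1 (adjusted p = 0.0588), si1 replicate 2 (0.107), si2 replicate 1 (0.0674) or si2 replicate 2 (0.113). Of its length, 49.6% overlaps EPB41L4A on the opposite strand (mean 0.961 FPKM).

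By position 1 more of the 144 holds a snoRNA. LINC02001 (chr17:35568109-35574843, plus strand) contains SNORD7 and was outside the list. It had 4.68 and 4.01 FPKM in si1, 3.66 and 3.87 FPKM in si2, and 3.10 and 2.54 FPKM in NC, above NC in all 4 knockdown libraries. LINC02001 rose in si1 (0.48, SE 0.11, adjusted p = 0.0237), a call lost without NC replicate 2 (adjusted p = 0.131) or si1 replicate 1 (0.0959). In si2 it was not called (0.32, SE 0.11, adjusted p = 0.0734).

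**Figure D3:**
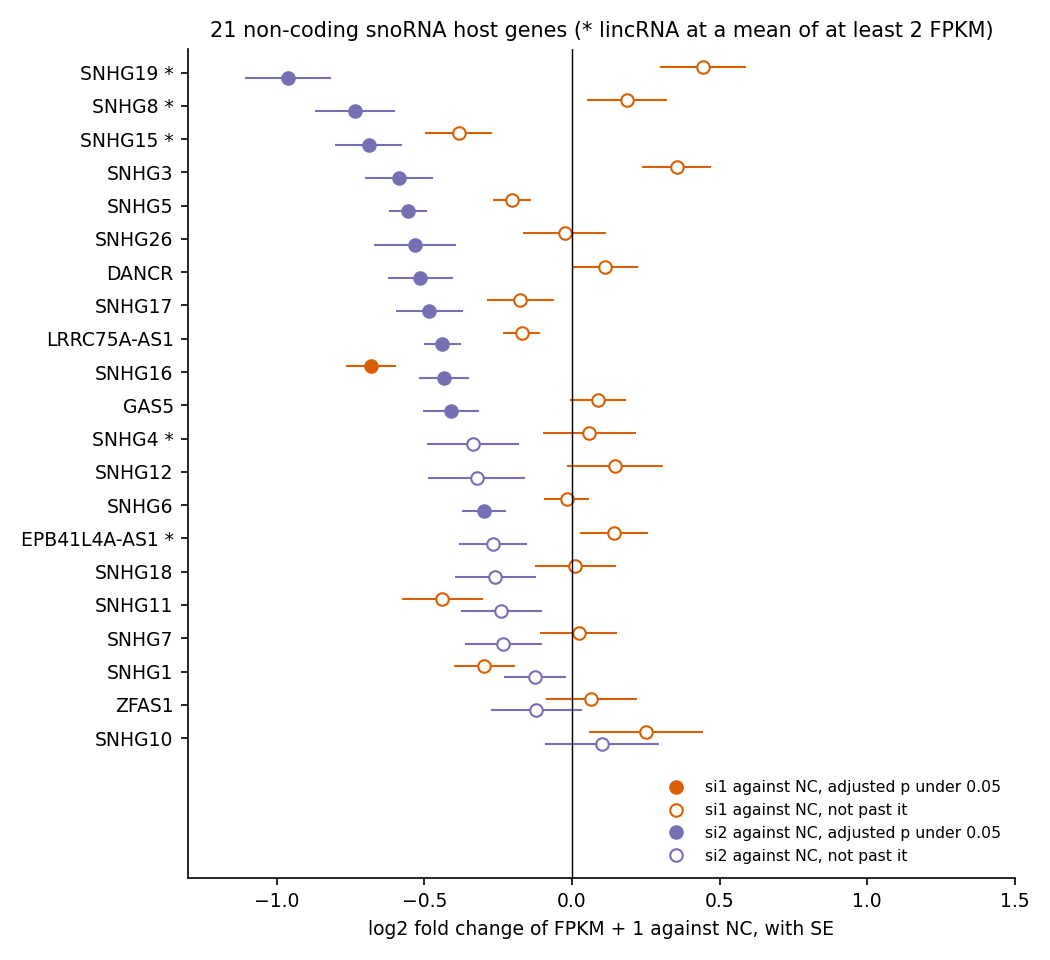
Log2 fold change of FPKM + 1 with its SE for the 21 non-coding snoRNA host genes tested, in si1 against NC (orange) and si2 against NC (purple), ordered by the si2 value. Filled points passed an adjusted p of 0.05, and an asterisk marks the 5 hosts among the 144 lincRNAs. In si2 12 points are filled, all below 0, and in si1 1 is, SNHG16.

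The 16 tested hosts outside the 144 followed the same counts, with 9 down and 0 up in si2 and 1 down and 0 up in si1. SNHG5 had 37.8 and 40.4 FPKM in si1, 30.5 and 30.3 FPKM in si2, and 44.1 and 46.2 FPKM in NC, and fell in si2 by −0.56 (adjusted p = 0.0014). GAS5 had 22.4 and 26.1 FPKM in si1, 17.8 and 15.8 FPKM in si2, and 23.2 and 22.2 FPKM in NC (−0.41 in si2, adjusted p = 0.019). Both had their lowest levels in the si2 libraries. SNHG16 differed, at 8.49 and 8.99 FPKM in si1, 11.1 and 10.1 FPKM in si2, and 13.9 and 15.3 FPKM in NC, and fell in both groups.

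Protein-coding genes that host snoRNAs in their introns, 24 tested of 25 listed, moved in the same comparison. In si2 against NC 14 fell and 0 rose, with a median of −0.32 (15.4% of all genes fell), and in si1 1 fell and 0 rose, with a median of 0.00 (12.9% of all genes fell). Without NC replicate 2 fewer of the 24 were called, as were fewer of all genes, and the median was −0.287 with 22 of 24 below 0. Without a filter on low values, 9 of 25 fell, where 6.04% of all genes were called in either direction. Most of them encode ribosomal proteins, such as RPL3 (−0.61 in si2, −0.01 in si1) and RPL13A (−0.47 in si2, 0.10 in si1). The part of ribosomal protein genes in the result on the lincRNA hosts was not tested.

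Of 28 listed microRNA host genes, 6 were tested and 3 are among the 144: MIR3142HG, MIR4435-2HG and MIR22HG. By position 6 of the 144 hold a microRNA, these 3 with NEAT1, FTX and MIR548XHG. MIR3142HG (chr5:160438594-160487426, plus strand) contains miR-3142 and miR-146a, a microRNA known to dampen NF-kB signalling. It had 1.24 and 1.86 FPKM in si1, 6.39 and 5.93 FPKM in si2, and 3.55 and 2.85 FPKM in NC, from 48 to 240 reads. The 3 groups did not overlap, with si2 highest and si1 lowest. In si2, MIR3142HG exceeded its si1 level by 1.5 (SE 0.15, adjusted p = 4.47e-04), kept under all 17 alternatives. It fell in si1 (−0.73, SE 0.15, adjusted p = 0.0139; adjusted p = 0.0945 without NC replicate 1) and rose in si2 (0.77, SE 0.15, adjusted p = 0.00945; adjusted p = 0.0661 without NC replicate 2 and 0.0566 without si2 replicate 1).

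MIR4435-2HG, which contains miR-4435, had 1.74 and 1.84 FPKM in si1, 3.002 and 3.36 FPKM in si2, and 2.99 and 2.43 FPKM in NC. The si1 libraries were the lowest, and si2 lay at or above NC. It was higher in si2 than in si1 (0.58, SE 0.12, adjusted p = 0.00863), a call lost without si2 replicate 2 (adjusted p = 0.0507), and its adjusted p in si1 against NC was 0.05 (0.04997 before rounding), past the threshold in 0 of the 6 leave-one-out fits. MIR22HG, host of miR-22, was not called: it had 5.61 and 6.77 FPKM in si1, 6.95 and 7.44 FPKM in si2, and 6.17 and 5.19 FPKM in NC. Of the 3 hosts tested outside the 144, MIR100HG rose in si2 (0.83, adjusted p = 0.0058) and MIR31HG rose in si1 (0.67, adjusted p = 0.028).

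LINC02035 (chr3:122886941-122892416, plus strand) had 3.02 and 2.90 FPKM in si1, 3.72 and 3.90 FPKM in si2, and 1.99 and 2.02 FPKM in NC. All 4 knockdown libraries were above NC. LINC02035 rose in si2 (0.68, SE 0.09, adjusted p = 0.00286), kept under all 17 alternatives, and in si1 (0.40, SE 0.09, adjusted p = 0.024), a call lost without NC replicate 1 (adjusted p = 0.116), NC replicate 2 (0.0997), si1 replicate 1 (0.0734) or si1 replicate 2 (0.0612).

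LINC01124 (chr2:170712451-170714567, minus strand) starts 784 bases from SP5, a transcription factor gene on the other strand. It had 3.84 and 4.07 FPKM in si1, 2.27 and 2.25 FPKM in si2, and 1.10 and 1.94 FPKM in NC. Again all knockdown libraries were above NC, with si1 the highest. LINC01124 rose in si1 (1.00, SE 0.16, adjusted p = 0.00626) in each of the 6 leave-one-out fits, and was not called in si2 alone (0.39, SE 0.16, adjusted p = 0.117). It was lower in si2 than in si1 (−0.60, SE 0.16, adjusted p = 0.0249), a call lost without si1 replicate 1 (adjusted p = 0.0803), si1 replicate 2 (0.1), si2 replicate 1 (0.0844) or si2 replicate 2 (0.0827).

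LINC00294 (chr11:33076149-33079454, plus strand) had 3.59 and 3.36 FPKM in si1, 2.16 and 1.94 FPKM in si2, and 4.11 and 4.62 FPKM in NC. All 4 knockdown libraries were below NC, and si2 was lowest. LINC00294 fell in si2 (−0.81, SE 0.10, adjusted p = 0.00191) and was lower in si2 than in si1 (−0.55, SE 0.10, adjusted p = 0.0056), both kept under all 17 alternatives.

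LINC00460 (chr13:106374477-106384315, plus strand), reported as high in several carcinomas, had 6.06 and 6.37 FPKM in si1, 10.1 and 9.07 FPKM in si2, and 11.03 and 10.7 FPKM in NC. It was lowest in si1. LINC00460 fell in si1 (−0.72, SE 0.08, adjusted p = 0.00138) and was higher in si2 than in si1 (0.55, SE 0.08, adjusted p = 0.00214), both kept under all 17 alternatives. In si2 against NC it was not called (−0.17, SE 0.08, adjusted p = 0.16).

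MANCR (chr10:4650185-4678154, minus strand), a lincRNA described in mitosis of breast cancer cells, had 3.85 and 4.74 FPKM in si1, 6.30 and 8.34 FPKM in si2, and 10.8 and 8.24 FPKM in NC. The si1 libraries were the lowest and si2 overlapped NC. MANCR fell in si1 (−0.98, SE 0.16, adjusted p = 0.00667) in each of the 6 leave-one-out fits. It was higher in si2 than in si1 (0.65, SE 0.16, adjusted p = 0.0197), a call lost without si1 replicate 1 (adjusted p = 0.103) or si2 replicate 2 (0.0965).

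LINC00857 rose in si2, with 2.59 and 2.26 FPKM in si1, 3.97 and 3.87 FPKM in si2, and 1.79 and 2.23 FPKM in NC (0.71, SE 0.12, adjusted p = 0.00537). LINC01184 rose in si2, with 4.13 and 3.74 FPKM in si1, 4.92 and 4.74 FPKM in si2, and 3.02 and 3.11 FPKM in NC (0.52, SE 0.09, adjusted p = 0.00632). Both of these rises were kept under all 17 alternatives, and the si2 libraries were the highest for each. LINC00944 had a higher level in si2 than in si1 (0.96, SE 0.12, adjusted p = 0.00135), with 2.84 and 2.33 FPKM in si1, 5.81 and 6.10 FPKM in si2, and 5.26 and 4.15 FPKM in NC. ELFN1-AS1 was lower in si2 than in si1 (−0.86, SE 0.14, adjusted p = 0.00374), with 6.31 and 5.62 FPKM in si1, 2.43 and 3.28 FPKM in si2, and 4.54 and 3.57 FPKM in NC.

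Several lincRNAs rose by small steps, with calls that were each lost in several leave-one-out fits, not all of which are given. LINC00667 had 4.18 and 5.05 FPKM in si1, 4.02 and 4.57 FPKM in si2, and 2.85 and 3.26 FPKM in NC. LINC00909 had 3.64 and 3.58 FPKM in si1, 3.64 and 3.41 FPKM in si2, and 2.33 and 2.75 FPKM in NC. For LINC00667 and LINC00909 all 4 knockdown libraries were above both NC libraries, and their rises in si1 (0.47 and 0.38) and si2 (0.38 and 0.35) all failed without NC replicate 1, with adjusted p of 0.157 and 0.189 in si1 and 0.203 and 0.19 in si2. LINC02241 rose in si1 (0.62, SE 0.15, adjusted p = 0.0283), USP46-AS1 in si2 (0.54, SE 0.15, adjusted p = 0.0378) and LINC02163 in si2 (0.60, SE 0.18, adjusted p = 0.0478, from 19 to 42 reads). Without NC replicate 2 their adjusted p was 0.135, 0.187 and 0.0788.

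URB1-AS1, one of the lincRNAs most like MALAT1, had 9.86 and 7.89 FPKM in si1, 4.80 and 6.29 FPKM in si2, and 4.32 and 4.73 FPKM in NC. It rose in si1 (0.83, SE 0.14, adjusted p = 0.00705), a call lost without NC replicate 1 (adjusted p = 0.0553). LINC01444 had 9.61 and 11.1 FPKM in si1, 7.58 and 10.4 FPKM in si2, and 12.8 and 15.3 FPKM in NC, below NC in all 4 knockdown libraries. It fell in si2 (−0.60, SE 0.15, adjusted p = 0.027), a call lost without NC replicate 2 (adjusted p = 0.15), NC replicate 1 (0.0561) or si2 replicate 1 (0.12).

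TRAM2-AS1, LINC00265 and LINC01963 split the knockdown groups, each kept under all 17 alternatives in si2 against si1. TRAM2-AS1 had 2.47 and 2.48 FPKM in si1, 4.62 and 4.55 FPKM in si2, and 3.53 and 3.56 FPKM in NC, with NC between the knockdown groups (0.68, SE 0.09, adjusted p = 0.0012). LINC00265 had 2.14 and 1.69 FPKM in si1, 3.60 and 3.48 FPKM in si2, and 3.82 and 3.11 FPKM in NC, low in si1 only (0.64, SE 0.13, adjusted p = 0.0073). LINC01963 had 5.01 and 5.41 FPKM in si1, 3.02 and 1.98 FPKM in si2, and 4.49 and 4.25 FPKM in NC, low in si2 only (−0.84, SE 0.14, adjusted p = 0.00418). LINC00973 was among the most abundant and was not called, with 8.27 and 8.23 FPKM in si1, 13.4 and 8.53 FPKM in si2, and 12.6 and 9.17 FPKM in NC.

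Of 34 genes listed as described in cancer, 30 were in the table, 15 were tested and 7 are among the 144. Some of the 34 are annotated with another biotype than lincRNA and so could not be among the 144. In si1, 1 of the 7 rose and 2 fell, where 22.4% of all genes were called, and in si2 0 rose and 1 fell, where 29% were. CASC9 had 10.96 and 14.1 FPKM in si1, 16.9 and 11.9 FPKM in si2, and 12.1 and 11.1 FPKM in NC, and was not called (0.18 for both groups together, SE 0.15, adjusted p = 0.42). LINC01116 had 7.55 and 8.68 FPKM in si1, 11.1 and 10.1 FPKM in si2, and 9.83 and 10.03 FPKM in NC, with both si1 libraries lowest. It differed between si2 and si1 (0.35, SE 0.09, adjusted p = 0.0213), a call lost without si1 replicate 1 (adjusted p = 0.0772) or si2 replicate 1 (0.124). LINC00467 was not called in any comparison, at 2.34 and 3.12 FPKM in si1, 2.39 and 2.602 FPKM in si2, and 2.22 and 2.04 FPKM in NC (0.20 for both groups together, SE 0.11, adjusted p = 0.252). All 4 knockdown libraries were above both NC libraries for LINC00467.

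Of all genes tested, 22.4% were called in si1, 29% in si2 and 38.5% in si2 against si1. The 76 lincRNAs with a clone name had 16 calls in si1 (4 up, 12 down), 24 in si2 (12 up, 12 down) and 25 in si2 against si1 (16 up, 9 down), or 21.1%, 31.6% and 32.9%. The 68 with another symbol had 22 (13 up, 9 down), 20 (9 up, 11 down) and 27 (11 up, 16 down) in the same comparisons, or 32.4%, 29.4% and 39.7%. Of all 144, 6 differed between si2 and si1 by over 1 log2 unit past the threshold: AP005233.2, AC018645.2, MIR3142HG and AC008440.3 were higher in si2, and SNHG19 and AC008764.2 lower. Of all 12319 genes tested, 208 were higher and 205 lower in si2 by that measure.

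AC245041.1 (chr10:47970043-47973496, minus strand) was the most abundant with a clone name. It had 8.89 and 9.80 FPKM in si1, 13.7 and 16.0 FPKM in si2, and 23.7 and 21.9 FPKM in NC. The 3 groups did not overlap, and both knockdown groups were below NC. AC245041.1 fell in si1 (−1.201, SE 0.10, adjusted p = 4.11e-04) and in si2 (−0.59, SE 0.10, adjusted p = 0.00536), both kept under all 17 alternatives.

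AC018645.2 (chr7:32758882-32759353, plus strand) had 2.59 and 3.13 FPKM in si1, 11.7 and 9.39 FPKM in si2, and 7.10 and 6.997 FPKM in NC, from 20 to 87 reads. It was lowest in si1 and highest in si2. AC018645.2 fell in si1 (−1.06, SE 0.12, adjusted p = 0.00139) and was higher in si2 than in si1 (1.57, SE 0.12, adjusted p = 1.70e-04), both kept under all 17 alternatives. AC008764.2 rested on 1 to 41 reads, with 0.168 and 1.94 FPKM in si2 and 2.93 and 5.50 FPKM in si1, so its difference of −1.45 (SE 0.43, adjusted p = 0.0362) held in 1 of the 6 leave-one-out fits, with adjusted p up to 0.176 in the others.

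Neighbouring coding genes were found by position. Of the 144, 27 start within 2000 bases of a protein-coding gene transcribed the other way (head to head), and in 26 of these pairs the neighbour was tested. Across these 26 pairs the correlation of the log2 fold changes (Pearson's r, a description across genes) was 0.488 in si1 against NC, 0.0175 in si2 against NC and 0.518 in si2 against si1. For the 78 lincRNAs with a tested nearest coding gene in another arrangement it was 0.469, 0.224 and 0.267. Each pair shares its libraries, and r was not higher for head to head pairs in si2 against NC.

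In si2 against si1, both partners were called in 5 of the 26 pairs, in the same direction in 4. Of the 78 other pairs, both were called in 13, in the same direction in 9. The names that follow were chosen after their values had been seen. FLJ42351 (chr2:112641832-112645690, minus strand) starts 167 bases from SLC20A1, which encodes a phosphate transporter. FLJ42351 had 1.63 and 1.37 FPKM in si1, 3.10 and 3.34 FPKM in si2, and 2.96 and 2.53 FPKM in NC, lowest in si1. In si2 against si1 its difference was 0.75 (SE 0.12, adjusted p = 0.00287) and that of SLC20A1 1.39 (adjusted p = 3.02e-05). LINC01124 and SP5 were both lower in si2 than in si1 (−0.60 and −0.62), as were SNHG19 and TRAF7 (−1.41 and −0.25) and AC009414.2 and CRIM1 (−0.53 and −0.23). FLJ20021 was lower in si2 (−0.51) and its neighbour PPP3CA higher (0.52).

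**Figure D4:**
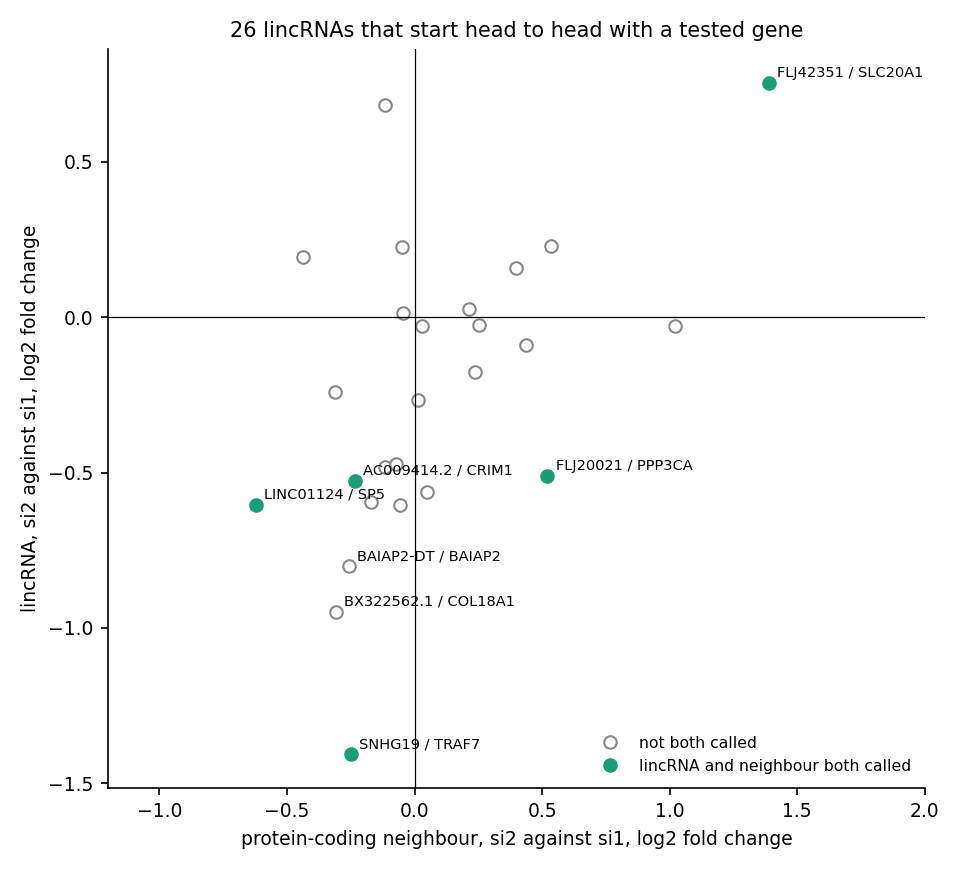
Log2 fold change of FPKM + 1 in si2 against si1 for 26 head to head pairs, with the protein-coding neighbour on the x axis and the lincRNA on the y axis. Filled points are the 5 pairs in which both were called. FLJ42351 with SLC20A1 lies at the upper right and SNHG19 with TRAF7 at the bottom.

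The next pairs, also chosen after their values had been seen, lie on 1 strand. In some such pairs the values ran opposite, as for NEAT1 in si1 (0.43) and FRMD8 (−0.43, adjusted p = 0.0081), 9249 bases away. AP005233.2 (chr11:69371463-69372512, plus strand) lies 3737 bases from MYEOV, a gene named for its overexpression in myeloma. AP005233.2 had 0.658 and 0.953 FPKM in si1, 4.76 and 9.60 FPKM in si2, and 5.15 and 6.58 FPKM in NC, from 4 to 54 reads. It fell in si1 (−1.92, SE 0.27, adjusted p = 0.00333), with MYEOV at −1.98 (adjusted p = 1.31e-04), and in si2 its value was 0.20 (adjusted p = 0.627), with MYEOV at −0.99 (adjusted p = 0.00113).

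AP001505.1 (chr21:44978832-44979274, plus strand) lies 1843 bases from FAM207A. It had 7.32 and 5.47 FPKM in si1, 3.14 and 4.33 FPKM in si2, and 9.86 and 8.74 FPKM in NC, below NC in all 4 knockdown libraries. AP001505.1 fell in si2 (−1.13, SE 0.16, adjusted p = 0.00319), with FAM207A at −0.79 (adjusted p = 0.00842). AC254633.1, 1169 bases from DHRS3, a retinal reductase gene, rose in si2 (0.90, SE 0.18, adjusted p = 0.0103), with DHRS3 at 0.81 (adjusted p = 4.24e-04). The AC254633.1 call did not hold without NC replicate 1 (adjusted p = 0.0632) or si2 replicate 1 (0.0589). AC008440.3, 83 bases from MYADM, had 5.51 and 5.22 FPKM in si1, 13.0 and 14.2 FPKM in si2, and 12.1 and 10.3 FPKM in NC, and its difference in si2 against si1 was 1.2 (SE 0.10, adjusted p = 2.02e-04), with MYADM at 0.59 (adjusted p = 7.79e-04).

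Of the lincRNAs in these pairs, NEAT1, AP005233.2 and AP001505.1 lie past the end of the coding gene. AC254633.1 and AC008440.3 lie before its start, with the 2 starts 1513 and 1460 bases apart. Whether reads that run on from the coding gene add to the values of lincRNAs past its end was not tested.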

How the data were processed

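The authors deposited 1 table of FPKM with the length of each of 58735 genes. The submitters' processing notes name the build hg38; which aligner, counter and annotation were used is not given in the sources used here. Start, end, biotype and exon length matched GENCODE release 29 for each of the 58735 genes, and its coordinates are printed. Reads were recovered as FPKM times length over the step of 1 read in each library, and came out whole for 100% of values within 1e-06 of a read.

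The 12319 genes whose mean reached 1 FPKM were fitted as log2(FPKM + 1) with limma 3.58.1 in R 4.3.3, with a trend and 1 coefficient per group over all 6 libraries (3 residual degrees of freedom). Tests were two-sided. The fit was tested on simulated reads. The main test used FPKM, and the only test on recovered reads was voom, an alternative listed below. Upper-quartile scaling was used in place of scaling factors for counts. Replicate numbers were not used to pair libraries: deviations of same-numbered libraries correlated at −0.0577 for si1 and si2, −0.052 for si1 and NC, and 0.0503 for si2 and NC.

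The lincRNAs and the gene lists were chosen with earlier results of these data known. The text names list members, the 10 most abundant with a symbol, and the highest and lowest called (10 for both groups together with all 4 knockdown libraries on 1 side of NC, 5 in each other comparison, 2 with a clone name), apart from some that the rule selects and counts cover. A lincRNA of the cancer list and a marker are not reported here. Neighbours and the lincRNAs named beside them were chosen after their values were seen. Alternatives were other pseudocounts, filters, scalings and group choices, a replicate block, each library left out, and, added after the data were seen, voom on the recovered reads and libraries centred on their median.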

Additional observations from a re-analysis of the deposited data

Results flagged for a closer look

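A closer look is due where the response differed between the knockdown groups by a test of the difference itself. Of the 50 lincRNAs named by rule, 29 differed between si2 and si1 (limma, adjusted p under 0.05, 2 libraries a group). The rule names the highest and lowest called in that comparison, so this share is partly set by the choice. Of the 144, 36.1% were called, beside 38.5% of all genes tested.

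Lower in si2 than in si1 were AC008764.2 (−1.45), SNHG19 (−1.41), BX322562.1 (−0.95), SNHG8 (−0.92), ELFN1-AS1 (−0.86), LINC01963 (−0.84), NEAT1 (−0.81), BAIAP2-DT (−0.80), MALAT1 (−0.76), NORAD (−0.71), AP001505.1 (−0.64), LINC01124 (−0.60), URB1-AS1 (−0.60), LINC00294 (−0.55) and EPB41L4A-AS1 (−0.41). Higher in si2 than in si1 were LINC01116 (0.35), LINC00857 (0.52), LINC00460 (0.55), MIR4435-2HG (0.58), AC245041.1 (0.62), LINC00265 (0.64), MANCR (0.65), TRAM2-AS1 (0.68), AC254633.1 (0.71), FLJ42351 (0.75), LINC00944 (0.96), MIR3142HG (1.5), AC018645.2 (1.57) and AP005233.2 (2.12). All values are log2 differences of FPKM + 1. The calls of AC008764.2, EPB41L4A-AS1, LINC01124, URB1-AS1, LINC00857, LINC01116, MIR4435-2HG, MANCR, AC254633.1 and AP001505.1 were each lost when some single library was left out, with the highest adjusted p at 0.176 for AC008764.2.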

How the results depend on the processing

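Counts of called lincRNAs are given in 1 order: both knockdown groups together (35), si1 (38) and si2 (44), each against NC, then si2 against si1 (52). Without a filter on low values, which adds many near-empty genes to the fit and to the adjustment, they were 7, 9, 14 and 33. In that setting 3.81%, 4.78%, 6.04% and 10.6% of all genes were called. The lincRNAs at an unadjusted p under 0.05 in limma also fell, from 63, 65, 62 and 72 to 50, 54, 52 and 61. Leaving out each library gave 8 to 33, 18 to 36, 23 to 42 and 35 to 55. For the comparisons against NC the lowest counts came from fits without a library of NC (8 and 18) or, for si2, without NC replicate 2 or si2 replicate 1 (23 each). Fits without a library of NC also called the smallest shares of all genes against NC. With the 4 knockdown libraries as 1 group, the spread between si1 and si2 counted as error. In that fit 0 were called for both together, with 33 at an unadjusted p under 0.05 in limma, and 0.682% of all genes were called. By voom, with separate groups, 31, 36, 35 and 44 were called, where 28.8%, 30.4%, 36.3% and 44.5% of all genes were. Among the 47 lincRNAs at 5 FPKM or more the counts were 15, 15, 19 and 21, and among the 77 that overlap no other gene 16, 18, 25 and 26, from fewer genes by construction. For the 47 the shares were 31.9%, 31.9%, 40.4% and 44.7%, beside 20.5%, 22.4%, 29% and 38.5% of all genes tested, the background for the 77 too. That background reaches down to 1 FPKM, and the share called was larger at higher levels. Of protein-coding genes at 2 to 5 FPKM, 16.1%, 18.3%, 24.3% and 33.2% were called. Of those at 2 FPKM or more, 23.8%, 25.9%, 33.4% and 44.3% were. The 47 were not set against genes of their own level. All other alternatives left the counts within 1.5 times. In a fit with the replicate block the counts were 33, 37, 36 and 52, and the numbers did not pair the libraries.

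Of the 50 lincRNAs named by rule, the calls kept under every alternative were 5 of 26 in si1, 9 of 24 in si2, 0 of 23 in both together and 19 of 29 in si2 against si1. Only both together faced the fit with the 4 knockdown libraries as 1 group, which called 0 of the 144. Its 0 of 23 was therefore fixed by that fit and cannot be set beside the other shares. No value past the threshold changed sign. The scalings tried moved the median of all genes to between −0.01 and 0.02 log2 units. Depth limits the 91 lincRNAs with a library under 100 reads, and 2 libraries a group limit every test.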
